A study of Mus musculus with 8 samples.

Results

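The laminin chains and nidogen of the mouse lung were examined after removal of the left lung. The set held 9 genes: the alpha chains Lama2, Lama3, Lama4 and Lama5, the beta chains Lamb1, Lamb2 and Lamb3, the gamma chain Lamc1, and Nid1. They were taken from 18193 genes with a single symbol in the array annotation, and the brightest probe set of each gene (by its mean on all 8 arrays) stands for the gene. Together the 9 genes have 19 probe sets of the 45037 tested, and the other 10 served as a check. The first group, PNY, had a left unilateral pneumonectomy. The second, SHAM, had the chest opened with no lung removed. Each group was studied at 6 hours and at 1, 3 and 7 days, with 1 array per group and time point and equal amounts of lung from 8 mice pooled on each array. All mice were female C57BL/6 of 10 to 12 weeks, and both groups received ketamine, xylazine, ampicillin and ventilation. The comparison asks how gene expression in the remaining lung differs while it grows back. Whole lung was used, so a change in the number of cells of a type and a change in RNA per cell cannot be told apart.

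Laminins are trimers of an alpha, a beta and a gamma chain. They assemble into the sheet of the basement membrane that lies under epithelium and around capillaries, muscle fibres and nerves, and nidogen links that sheet to the network of collagen IV. In the alveolus the basement membranes of epithelium and endothelium lie back to back and form much of the barrier that gas crosses.

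RefSeq promoter windows (GRCm38.p6), each running from 250 bases before to 50 bases after a start site, were used for 6 of the 9 genes, in 7 windows. The windows of Nid1, Lamb1 and Lamb3 are shown because these genes had the smallest limma p-values between PNY and SHAM. By rank product P, Lama3 (0.0251) came before Lamb1 (0.027) and Lamb3 (0.0373), but no window of Lama3 was used. The Nid1 window is chr13:13437352-13437651, that of Lamb1 is chr12:31265043-31265342 and the first of the pair for Lamb3 is chr1:193301744-193302043, all on the plus strand. Capitals mark matches on either strand to 5 motifs.
Nid1: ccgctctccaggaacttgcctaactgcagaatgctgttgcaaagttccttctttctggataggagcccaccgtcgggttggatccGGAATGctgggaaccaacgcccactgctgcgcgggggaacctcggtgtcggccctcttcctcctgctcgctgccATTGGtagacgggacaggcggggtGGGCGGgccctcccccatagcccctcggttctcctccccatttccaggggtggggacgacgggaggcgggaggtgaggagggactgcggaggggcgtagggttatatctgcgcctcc
Lamb1: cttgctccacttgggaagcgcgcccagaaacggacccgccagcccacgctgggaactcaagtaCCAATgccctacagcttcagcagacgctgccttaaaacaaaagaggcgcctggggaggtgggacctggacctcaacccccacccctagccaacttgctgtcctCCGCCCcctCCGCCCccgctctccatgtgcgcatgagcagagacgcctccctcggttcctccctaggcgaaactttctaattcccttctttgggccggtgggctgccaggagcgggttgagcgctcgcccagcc
Lamb3: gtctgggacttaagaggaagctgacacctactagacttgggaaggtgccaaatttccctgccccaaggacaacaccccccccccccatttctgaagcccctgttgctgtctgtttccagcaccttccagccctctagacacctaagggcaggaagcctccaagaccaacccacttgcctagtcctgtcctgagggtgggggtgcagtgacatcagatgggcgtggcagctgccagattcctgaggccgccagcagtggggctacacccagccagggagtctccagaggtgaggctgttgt
The motifs were the GC box GGGCGG, held by 35.7% of all 32851 windows of this length, the CCAAT box CCAAT (37.4%), the TEAD element GGAATG (14.7%), the AP-1 element TGANTCA (7.81%) and the TATA box TATAAA (13.6%). Nid1 held 1 GC box, 1 CCAAT box and 1 TEAD element, and Lamb1 held 2 GC boxes and 1 CCAAT box. The Lamb3 window shown held none, and its other window held 1 TEAD element. Among the windows not shown, Lama5 had 4 GC boxes, Lama2 had 1 and Lamb2 had no match to any motif. These matches describe the letters only.

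All values are log2 expression, and a difference is PNY minus SHAM. No gene of the set passed the rank product threshold (P-value under 0.001 and 1.5-fold or more), against 0.506% of all genes that passed upward. None passed limma after Benjamini-Hochberg adjustment (adjusted p = 1 for each), where the share over all genes was 0%. At an unadjusted p under 0.05 limma took in 902 of all probe sets. Within these limits the 9 genes lay to one side: the mean difference over the 4 time points was above 0 for all 9, with a median of 0.19, while 52.9% of all genes had a mean difference above 0. The time points serve as replicates in these tests, so p-values rest on pools taken at different times and do not measure the spread between mice.

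Nid1, the nidogen that bridges laminin and collagen IV, had the largest mean difference. It read 9.89, 9.76, 9.53 and 10.14 at 6 hours, 1, 3 and 7 days in PNY, against 9.44, 9.53, 9.24 and 9.57 in SHAM. PNY was above SHAM at every time point, but the PNY array of 3 days lay below the highest SHAM array, so the groups overlapped. The mean difference was 0.38 ± 0.16 (SD over time points, n = 4), a fold change of 1.3, and at 7 days the fold change was 1.49. Its rank product P was 0.00844, its limma p was 0.0191 and the exact permutation test (two-sided, 70 splits, smallest possible p 0.029) gave 0.0857. That test takes the arrays as unpaired. An exact sign-flip test of the 4 time point differences cannot go below 0.125.

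Of the beta chains, Lamb1 is a widely used chain of many laminins. It read 9.44, 9.49, 9.48 and 9.74 in PNY at the 4 time points in order, against 9.12, 9.34, 8.99 and 9.46 in SHAM. PNY was higher at each time point, and only the SHAM array of 7 days reached into the PNY range. The mean difference was 0.31 ± 0.14 (fold change 1.24, limma p 0.0318, exact permutation p 0.0571). Lamb3 pairs with Lama3 in the laminin that anchors epithelium at hemidesmosomes. It read 9.17, 9.02, 9.30 and 9.43 in PNY, against 8.92, 9.01, 8.89 and 9.0 in SHAM. Lamb3 was the single gene of the 9 in which every PNY array lay above every SHAM array, a pattern held by 0.857% of all genes, and at 1 day the gap was only 0.01. The mean difference was 0.27 ± 0.20 (fold change 1.21, limma p 0.0263, exact permutation p 0.0286, the smallest that the unpaired test can give). Lamb2, the beta chain known from the neuromuscular junction and the glomerulus, read 8.28, 8.17, 8.25 and 8.42 in PNY, against 7.85, 8.42, 8.21 and 8.26 in SHAM. The groups overlapped, and the mean difference of 0.09 ± 0.29 (limma p 0.483, exact permutation p 0.6) was smaller than its spread over time points. It became -0.02 when the SHAM array of 6 hours was left out.

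Of the alpha chains, Lama3, the partner of Lamb3, had the largest mean difference. It read 8.78, 8.75, 9.24 and 9.32 in PNY, against 8.38, 9.05, 8.74 and 8.82 in SHAM. PNY was higher at 6 hours, 3 days and 7 days and lower at 1 day, where SHAM had its highest array. The mean difference was 0.28 ± 0.39 (fold change 1.21, limma p 0.146, exact permutation p 0.229). It was 0.15 without the SHAM array of 6 hours and 0.18 without the PNY array of 7 days. Lama2, the alpha chain of muscle and nerve basement membranes, read 7.68, 7.64, 7.82 and 8.13 in PNY, against 7.53, 7.81, 7.52 and 7.79 in SHAM. PNY was lower only at 1 day, as for Lama3, and the mean difference was 0.16 ± 0.23 (limma p 0.262, exact permutation p 0.286), or 0.05 without the PNY array of 7 days. Lama4, the alpha chain of blood vessels, read 9.33, 9.33, 9.28 and 9.45 in PNY, against 9.24, 9.24, 9.19 and 9.42 in SHAM. PNY was above SHAM at every time point by 0.02 to 0.09, and the mean difference of 0.07 ± 0.03, with the smallest SD of the 9, had a limma p of 0.432 and an exact permutation p of 0.286. Lama5, a main alpha chain of mature epithelial basement membranes, read 8.42, 8.14, 8.52 and 8.60 in PNY, against 8.29, 8.26, 8.52 and 8.30 in SHAM. The groups were level at 3 days, and the mean difference was 0.08 ± 0.18 (limma p 0.517, exact permutation p 0.514), or 0.02 without the PNY array of 7 days and 0.17 without that of 1 day.

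The gamma chain Lamc1, which is shared by most laminins and binds nidogen, read 9.69, 9.28, 9.57 and 9.92 in PNY, against 9.51, 9.41, 9.24 and 9.53 in SHAM. The PNY array of 1 day lay within the SHAM range and that of 7 days was the highest of all 8. The mean difference was 0.19 ± 0.23 (fold change 1.14, limma p 0.193, exact permutation p 0.229), or 0.09 without the PNY array of 7 days and 0.30 without that of 1 day.

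**Figure D1:**
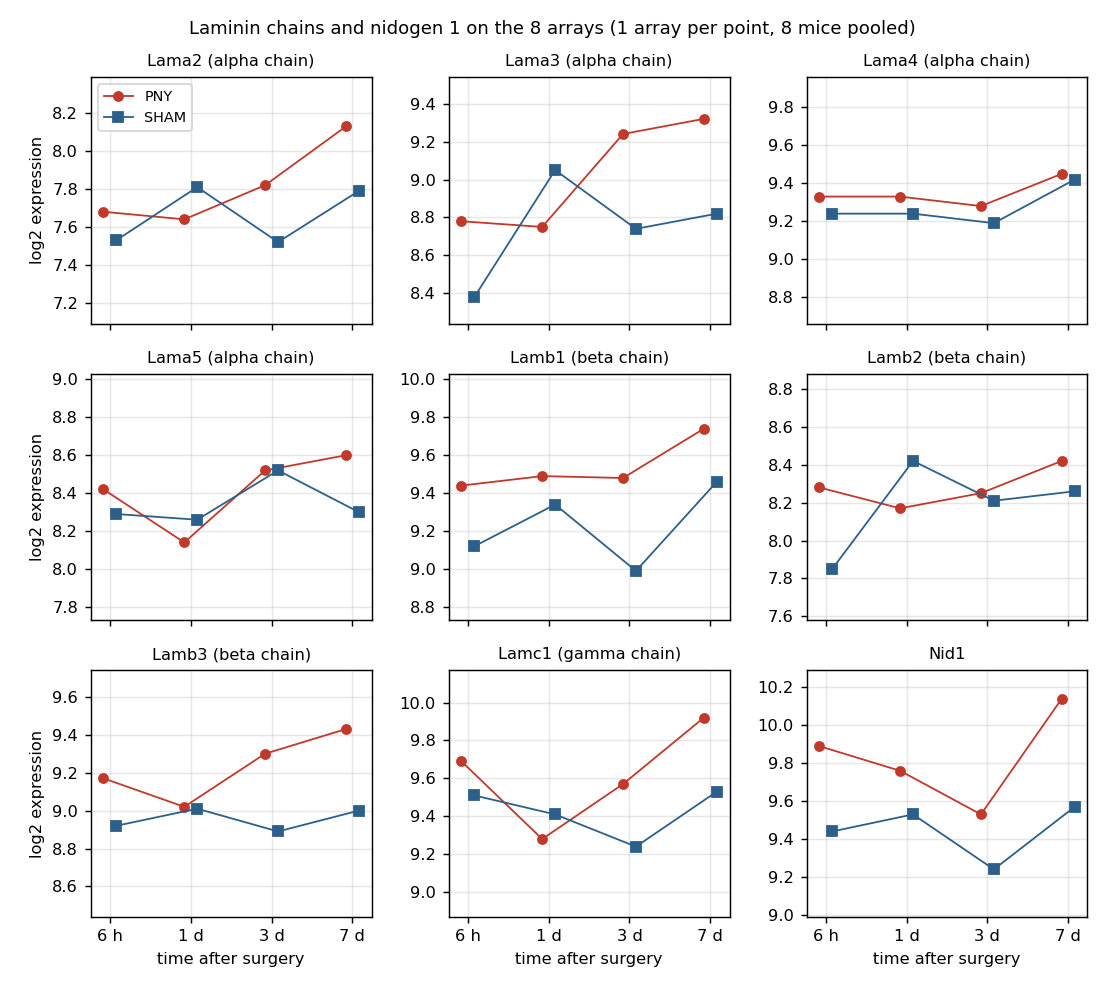
Log2 expression (vertical axes, each spanning the same width) of the 9 genes by time after surgery, with PNY as circles and SHAM as squares, 1 array of 8 pooled mice per point. The PNY array of 7 days is the highest of the 8 in every panel, and Lamb3 is the single gene with no overlap between the groups.

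At an unadjusted limma p under 0.05 were 3 of the 9 genes (Lamb1, Lamb3 and Nid1), against 1.28% of all genes that were higher in PNY at that level. With time point as a block the same 3 genes were under 0.05, with p of 0.00861, 0.0244 and 0.00311, against 3.8% of all genes that were higher in PNY. After adjustment none passed with the block either, and the smallest adjusted p was 0.833 for Nid1 (limma). Without the PNY array of 7 days limma put 0 of the 9 genes under 0.05, and likewise 0 without the SHAM array of 3 days.

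The difference varied by time. At 6 hours all 9 genes were higher in PNY (8 after quantile normalization once more), by 0.09 (Lama4) to 0.45 (Nid1), with a median of 0.25. At 1 day 4 were higher and 5 lower (3 higher after quantile normalization once more), with a median of -0.12 and a range from -0.30 for Lama3 to 0.23 for Nid1. At 3 days 8 were higher and Lama5 was level (9 higher after that step), with a median of 0.30. At 7 days all 9 were higher, before and after that step, with a median of 0.34 in the deposited values. The sizes depended on the processing. The median at 6 hours was 0.15 after the second quantile normalization, and with the mean of all probe sets of a gene it was 0.14 at 3 days and 0.16 at 7 days, when 8 of the 9 were higher. Over genes above the median level, where all 9 lie, PNY exceeded SHAM in 62.5%, 57.6%, 52.9% and 43% at the 4 time points in order. There was 1 array per group at each time point and so no test.

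With the probe sets used, no gene of the set was at least 1.5-fold higher at any time point. The shares of all genes were 0.682%, 1.88%, 1.14% and 1.98% in order of time. Among the other probe sets, the second of Lamc1 had a fold change of 1.55 at 6 hours, and 1 of Lamb1 had 1.5. The counts that follow are again for the probe sets used. At a fold change of 1.3 there were 3 at 6 hours (Lama3, Lamb2 and Nid1), none at 1 day, 3 at 3 days (Lama3, Lamb1 and Lamb3) and 4 at 7 days (Lama3, Lamb3, Lamc1 and Nid1). The shares over all genes were 3.93%, 6.1%, 3.66% and 5.8% at those times. Genes higher in PNY at all 4 time points were 4 of the 9 (Lama4, Lamb1, Lamb3 and Nid1), against 9.36% of all genes and 11.3% of those above the median level, and were 2 after quantile normalization once more. With the probe sets used, the PNY array of 7 days was the highest of the 8 arrays for all 9 genes. The shares were 15.4% of all genes and 17.4% of those above the median level. A SHAM array was the lowest for 8 of the 9, that of 3 days in 6 and that of 6 hours in 2. Most other probe sets of these genes did not peak on the PNY array of 7 days, though 1 of Lamb1 did (6.83). The second of Nid1 read 8.80 at 6 hours and 8.40 at 7 days in PNY. The second of Lama4 was lowest on the PNY array of 7 days (6.28).

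**Figure D2:**
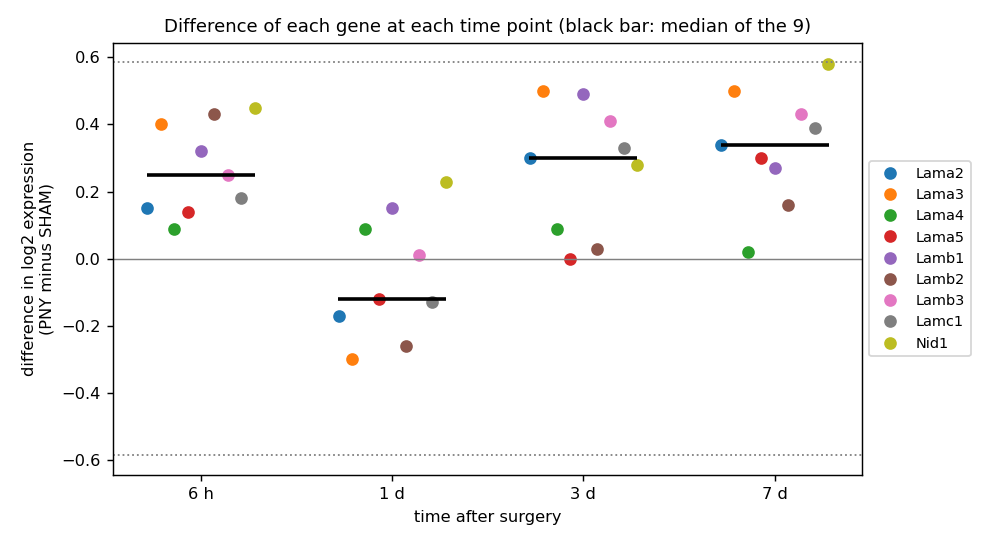
Difference in log2 expression (PNY minus SHAM, vertical axis) of each gene at each time after surgery, with a black bar at the median of the 9 and dotted lines at a fold change of 1.5 either way. The medians are 0.25, -0.12, 0.30 and 0.34, and no point passes the dotted lines.

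Time after surgery itself was tested with surgery as a covariate. None of the 9 genes passed the limma F-test after adjustment, against 4.04% of all genes, and the smallest adjusted p was 0.207 for Nid1. At an unadjusted p under 0.05 was 1 gene of 9, Nid1 (0.0396), against 23.5% of all genes. Whether the PNY difference at 3 and 7 days differed from that at 6 hours and 1 day was tested as an interaction. No gene of the 9 passed after adjustment, where the share over all genes was 0% and 1246 probe sets had an unadjusted p under 0.05, and none was under 0.05 unadjusted, against 2.46% of all genes. The largest later minus earlier estimate was 0.45 ± 0.29 (SE) for Lama3 (limma p 0.153).

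The other 10 probe sets of these genes did not all follow. Of the 10, 7 had a mean difference above 0, and 8, 3, 6 and 5 were higher in PNY at 6 hours, 1, 3 and 7 days. Of the 6 that lay above the median level, 6, 2, 3 and 5 were. The median differences at those times were 0.26, -0.05, 0.05 and 0.02 over the 10, and 0.49, -0.10, 0.03 and 0.17 over the 6. Both were thus largest at 6 hours, unlike those of the probe sets used. The second Nid1 probe set was also higher in PNY at every time point, with a mean difference of 0.29 ± 0.24. It read 8.80, 8.37, 8.30 and 8.40 in PNY, against 8.27, 8.32, 8.17 and 7.94 in SHAM. Its course over time differed: it was highest at 6 hours in PNY and lowest at 7 days in SHAM. The first was highest at 7 days in both groups. For Lamb1 the difference of 0.31 was not matched by its others, which gave 0.09, 0.15 and -0.11. The second Lamc1 probe set gave 0.25 ± 0.28, with 0.64 at 6 hours, and the second of Lama4 gave -0.02 ± 0.30.

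**Figure D3:**
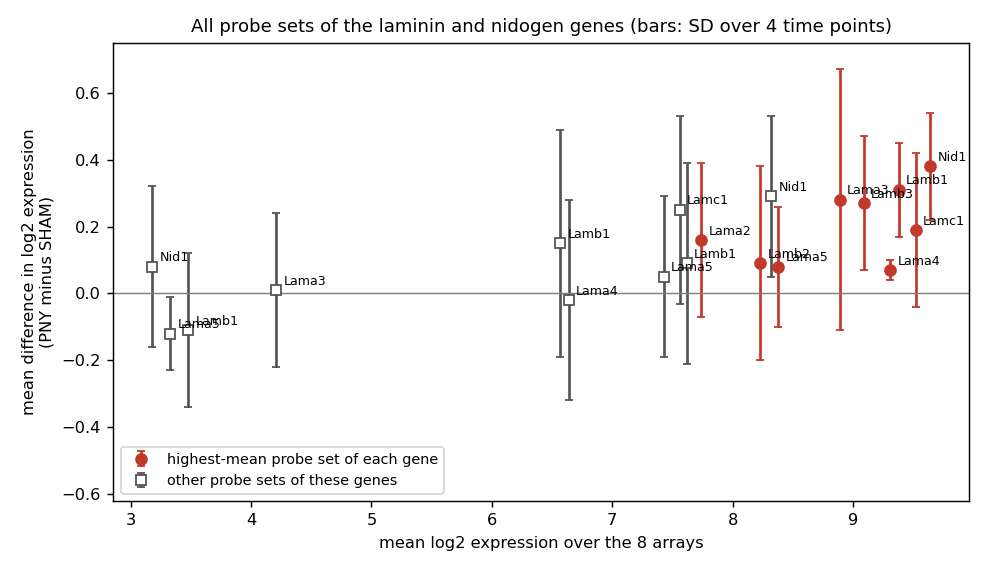
Mean difference in log2 expression (PNY minus SHAM, vertical axis, bars: SD over 4 time points) of all 19 probe sets against their mean log2 expression over the 8 arrays, with filled circles for the probe set used for each gene. All 9 circles lie above 0, and 7 of the 10 open squares do.

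Across the 8 arrays the genes varied together to different degrees, given here as Pearson's r with no test, since the arrays share time point and surgery. The highest were 0.87 for Lama2 with Lama3 (0.83 within surgery), 0.87 for Lamb1 with Nid1 (0.73) and 0.86 for Lama4 with Lamb1 (0.87). Lama3 with Lamb3, chains of the same laminin, had 0.81 (0.79), and Lamc1 with Nid1, which bind each other, had 0.77 (0.71). Lama5 stood most apart, with 0.09 for Lama4, 0.15 for Lamb1 and 0.19 for Nid1. Among 12142 other genes above the median level, those most alike by r were Myo1d for Lama2 (0.946), Irx2 for Lama3 (0.974), Bag6 for Lama4 (0.970), 4931414P19Rik for Lama5 (0.985), Cdk6 for Lamb1 (0.984), Dab2ip for Lamb2 (0.960), Mmp2 for Lamb3 (0.958), Reep1 for Lamc1 (0.962) and Dmwd for Nid1 (0.969). Each was the highest of all 12142 on 8 arrays and was not tested.

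The other basement membrane genes showed the same side. Of 30 measured, 0 were called by rank products or limma, where 0.506% (upward) and 0% of all genes were. At an unadjusted limma p under 0.05 were 3, all higher in PNY, against 1.28% of all genes that were higher at that level. A mean difference above 0 was held by 29, and the median of the list was 0.18. PNY was higher for 19 at 6 hours, for 18 at 1 day and for 28 at both later times, with medians of 0.10, 0.04, 0.20 and 0.31. The collagen IV chain Col4a1 read 12.69, 12.25, 12.06 and 12.37 in PNY, against 12.25, 11.98, 11.57 and 11.90 in SHAM. Its difference of 0.42 ± 0.10 (fold change 1.34, rank product P 0.00359) was the largest of the list, and its partner Col4a2 had 0.40 ± 0.17. Col15a1, a collagen of vascular and muscle basement membranes, had 0.34 ± 0.42, with 0.95 at 7 days, and the matrix peroxidase Pxdn, which crosslinks collagen IV, had 0.31 ± 0.19. The other nidogen, Nid2, was dim and had no steady direction, with 0.66, -0.09, -0.19 and 0.17 at the 4 time points. Agrn had 0.27 ± 0.22 with the probe set used here, whereas the study listed agrin among transcripts that were lower after pneumonectomy. The reason for this difference was not tested.

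In the F-test of time 3 of the 30 genes of this list passed, against 4.04% of all genes. They were Fras1 (adjusted p 0.00244, limma), Hmcn1 (0.00965) and Tinagl1 (0.0229). Fras1, an extracellular matrix protein of epithelial basement membranes, read 4.57, 6.22, 6.84 and 6.61 in PNY, against 4.53, 5.72, 6.51 and 6.35 in SHAM, and was lowest at 6 hours in both groups. Hmcn1, hemicentin, was also lowest at 6 hours in both, and Tinagl1, which binds laminin, was highest there, with 11.85 in PNY and 11.34 in SHAM.

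Of 19 laminin receptor and adhesion genes measured, 0 were called by rank products or limma, where 0.506% (upward) and 0% of all genes were. At an unadjusted limma p under 0.05 was 1, higher in PNY, against 1.28% of all genes that were higher at that level. A mean difference above 0 was held by 14, and the median of the list was 0.05. Itga3, an integrin alpha chain that binds laminins of epithelium, read 10.57, 10.67, 10.61 and 10.64 in PNY, against 10.25, 10.45, 10.10 and 10.55 in SHAM. Every PNY array lay above every SHAM array, a pattern held by 0.857% of all genes. The difference was 0.29 ± 0.18 (limma p 0.0269, exact permutation p 0.0286). Itga1 had 0.20 ± 0.06 and was the 1 receptor of 19 to pass the F-test of time (adjusted p 0.0150, limma), against 4.04% of all genes. Its level was lowest at 6 hours in both groups. Itga7 had 0.18 ± 0.13, and Itgb1, the shared beta chain, had 0.16 ± 0.09, as large as that of Cd151. Of the 5 netrins, which resemble laminin chains at their ends, none passed either test, 2 had a mean difference above 0, and the largest by size was 0.13 ± 0.09 for Ntn1. Ntn4, Ntng2 and Ntng1 had -0.08, 0.08 and -0.01.

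**Figure D4:**
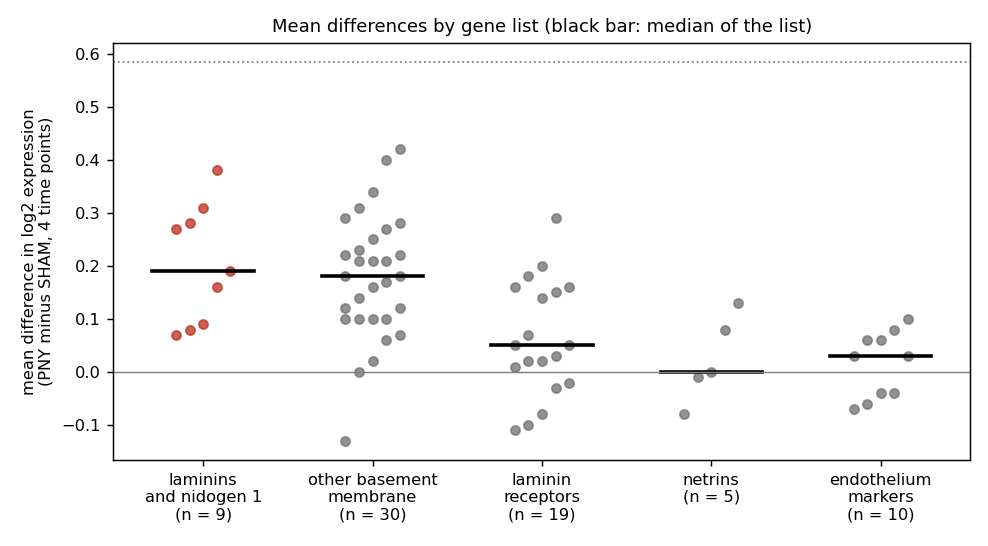
Mean difference in log2 expression over the 4 time points (PNY minus SHAM, vertical axis) of each gene in 5 lists, with a black bar at the median and a dotted line at a fold change of 1.5. The medians are 0.19 for the laminins and nidogen, 0.18 for other basement membrane genes and 0.05 for laminin receptors, and no gene reaches the dotted line.

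The tissue markers were those of lung: Sftpc read 14.66 to 14.69 in PNY and 14.65 to 14.69 in SHAM, and Ager 13.75 to 14.07 in PNY and 13.79 to 13.93 in SHAM. For cells that lay down these basement membranes, the median difference at 6 hours, 1, 3 and 7 days was 0.08, -0.06, 0.07 and -0.03 over 10 endothelial genes. It was 0.08, -0.01, 0.15 and 0.13 over 8 genes of alveolar type 1 cells, and 0.17, -0.02, 0.11 and 0.34 over 10 fibroblast genes. Of other epithelial lists, 7 alveolar type 2 genes had 0.03, -0.03, -0.02 and 0.06, and 6 club cell genes had 0.03, -0.04, -0.09 and -0.06. Over 7 airway basal genes, 6 of them below the median level, it was -0.09, 0.05, -0.14 and -0.10. Over 10 genes of smooth muscle and pericytes it was 0.08, 0.20, 0.34 and 0.12, and 9 of the 10 had a mean difference above 0. The mean log2 level of that list was 9.06 to 9.11 in PNY and 8.81 to 9.04 in SHAM, ranges that were apart but close. Of its genes, only Acta2 and Cnn1 had every PNY array above every SHAM array, a pattern held by 0.857% of all genes. Other lists differed at single time points. At 6 hours 5 of 5 adipocyte genes were higher in PNY (median 0.61, list level 7.72 in PNY and 6.91 in SHAM), and so were 8 of 8 mesothelial genes (median 0.35). At 7 days 0 of 8 leukocyte genes were higher, with a median of -0.54. At 7 days 10 of 10 heart muscle genes were higher in PNY, with mean log2 levels of the list of 8.35 to 8.65 in PNY and 7.55 to 8.81 in SHAM, the lowest in the SHAM array of 7 days. At the same time 8 of 10 skeletal muscle genes were higher, with list levels of 4.83 to 5.71 in PNY and 4.77 to 5.32 in SHAM. Acta1 read 8.17 in PNY at 7 days, against 5.96 in SHAM. The 8 thymocyte genes were all higher at 1 day, with a level of 7.52 in that PNY array and 5.08 to 5.38 in the other PNY arrays, against 5.24 to 5.48 in SHAM. The 10 mitosis genes had levels of 6.52 to 8.45 in PNY and 6.34 to 6.85 in SHAM. Of these genes 9 passed the rank product threshold upward, against 0.506% of all genes. The part of any of these in the values of the laminins and nidogen was not tested.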

How the data were processed

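Lung RNA from 4 PNY and 4 SHAM pools was read on Affymetrix mouse genome arrays. The deposited values are log2 expression that the authors made with RMA in BioConductor (version not given in the sources used here), by background correction, quantile normalization and summarization to probe sets. Here 64 control probe sets of 45101 were left out and no level filter was set. Of the rest, 34945 carry a single symbol, 932 several and 9160 none. Array medians ranged from 5.90 to 5.95, and the number of arrays limits the precision.

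Rank products were computed over the 16 PNY and SHAM pairs, as in the study's methods, with P-values from 1000 permutations (100 for alternatives). They were written in Python (3.11.15, using numpy 2.4.6 and pandas 2.3.3), since RankProd was not at hand. limma 3.58.1 in R 4.3.3 gave the tests of surgery, time and interaction, with Benjamini-Hochberg adjustment over all 45037 probe sets and a threshold of 0.05. Single genes had an exact permutation test (two-sided) that enumerated the 70 splits of the arrays, and figures were drawn with matplotlib 3.10.9. The rank product and limma comparisons of PNY with SHAM were tested on simulated data. Deviations from the group means correlated within time points (r 0.605, 0.357, 0.302 and 0.295 in order of time), so time point was also used as a block. The PNY array of 7 days correlated with the SHAM array of 3 days at 0.340.

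The text names all 9 genes and the gene most alike to each. From the related lists it names genes that passed a test or had the 4 largest mean differences. Nid2 and Agrn were chosen after their values were seen. The genes, lists and tests were chosen with earlier results of these data known. Some items of the related lists are not reported here. Alternatives were centred arrays, a second quantile normalization, dropping probe sets below the median, leaving out arrays or time points, averaging a gene's probe sets, other thresholds and a trended, robust prior.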

Additional observations from a re-analysis of the deposited data

Results flagged for a closer look

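In each of 18 groups of 4 arrays (9 genes, PNY and SHAM) the highest or lowest array was checked for a gap to the nearest array too large for the group's range by Dixon's test, and 2 were found, where chance gives about 1 group in 20. Lamb1 in PNY read 9.74 at 7 days, against 9.44 to 9.49 on the other PNY arrays (gap over range 0.839). Lama5 in SHAM read 8.52 at 3 days, against 8.26 to 8.30 on the other SHAM arrays (0.857).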

How the results depend on the processing

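No gene of the 9 passed the rank products or any limma test under any alternative run. Of 144 mean differences over 16 settings, 2 turned and 142 did not. The 142 include Lama5 at 0.00 with the mean of all probe sets. They also include the pairing by time point, which cannot change a mean difference. The 2 that turned were Lamb2, at -0.02 without the SHAM array of 6 hours and -0.02 without both arrays of 6 hours. Leaving out 1 array gave -0.02 to 0.17 for Lamb2. Leaving out 1 array moved Lama2 to between 0.05 and 0.22, Lama3 to 0.15 to 0.38, Lama4 to 0.04 to 0.12, Lama5 to 0.02 to 0.17 and Lamc1 to 0.09 to 0.30, against 0.23 to 0.39 for Lamb1, 0.21 to 0.34 for Lamb3 and 0.28 to 0.48 for Nid1. With the mean of all probe sets of a gene, Lamb1 was 0.11, Lama3 0.14, Lama4 0.03, Lama5 0.00 and Nid1 0.25. With time point as a replicate block, 0 genes passed, the smallest adjusted p was 0.833 and no call changed. Higher at all 4 time points were 2 genes in place of 4 after quantile normalization once more, which also put 1 gene past a fold change of 1.5 at 7 days. At a fold change of 1.3 there were 3 at 6 hours, 3 at 3 days and 4 at 7 days. Leaving out 1 array gave 0 to 1 other basement membrane genes past the rank product threshold, the 1 being Fras1 without the PNY array of 6 hours. The causes were not tested. Unadjusted limma p under 0.05 was met by 0 to 4 of the 9 genes when 1 array was left out, and by 0 without both arrays of 6 hours.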
